A study of Mus musculus with 160 samples.

Results

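Notch receptors, their ligands and a set of Notch-responsive genes were followed in single cells along the path from induced hemogenic endothelium to lymphoid progenitors. The set held 10 genes of the 23420 rows in the expression table, chosen by name: the receptors Notch1, Notch2 and Notch4, the ligands Dll4 and Jag1, and the targets Hes1, Hey1, Hey2, Dtx1 and Nrarp. The 160 cells were mouse cells (C57BL/6) derived from pluripotent stem cells that carried doxycycline-inducible Runx1 and Hoxa9, joined by a p2a peptide, in the Rosa26 locus, and all groups shared this insertion. The labels write the source as ESC/iPSC and do not say which it was for a given cell. The study describes the sequenced iHPCs as coming from embryonic stem cells. The stages and their gates were these. Induced hemogenic endothelial cells (iHECs, 65 cells) were CD31+CD41lowCD45-c-kit+CD201high. Induced hematopoietic progenitor cells (iHPCs) of day 14 (21 cells, maturation day 3) and day 17 (18 cells, maturation day 6) were CD45+ cells without lineage markers. Those of day 21 (56 cells, maturation day 10) were Ter119-CD45+c-kit+CD127+. Doxycycline was in the medium before the iHECs were sorted and in the later culture, so all 4 groups had it. The iHPCs alone had grown on OP9-DL1 cells, a mouse stromal line that displays the Notch ligand Delta-like 1. From iHEC to day 14, stage, gate and contact with the feeder therefore changed together and cannot be told apart. Between days 14 and 17 the gate was the same, and stage changed together with time on the feeder. From day 17 to day 21 stage, gate and time on the feeder changed together. Each library was 1 cell and no culture or animal was named, so each stage counted as 1 sample. The SDs below are spreads between cells, and no test between stages was possible.

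Notch receptors are cut when a ligand on a neighbouring cell pulls on them, and the freed intracellular part joins the DNA-binding protein RBPJ and a Mastermind coactivator to switch on target genes. In arterial endothelium the pathway works through Dll4, Jag1, Notch1 and Notch4 and drives Hey1, Hey2, Efnb2 and the connexins Gja4 and Gja5. In early T cell progenitors Delta-like ligands act on Notch1 and drive Dtx1, Ptcra, Il2ra and Notch3, and induce Tcf7, a T cell transcription factor. Hes1, Nrarp and Myc are targets in both settings.

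The promoters of 4 targets are shown as examples: Ptcra and Dtx1 of T cell progenitors, Nrarp of both settings and Hey2 of arterial endothelium. Ptcra, Dtx1 and Nrarp were each detected in their largest share of cells at day 17, and Hey2 in 1 cell of all stages. Each line gives the 250 bases before the RefSeq transcription start (GRCm38.p6), 5′ to 3′ on the strand of the gene. Capitals mark the core of the RBPJ motif, TGGGAA, or its reverse complement, TTCCCA. Ptcra lies at chr17:46763713-46763962, minus strand. The Dtx1 window is chr5:120711670-120711919, minus strand, that of Nrarp is chr2:25180508-25180757, plus strand, and that of Hey2 is chr10:30842784-30843033, minus strand.
Ptcra: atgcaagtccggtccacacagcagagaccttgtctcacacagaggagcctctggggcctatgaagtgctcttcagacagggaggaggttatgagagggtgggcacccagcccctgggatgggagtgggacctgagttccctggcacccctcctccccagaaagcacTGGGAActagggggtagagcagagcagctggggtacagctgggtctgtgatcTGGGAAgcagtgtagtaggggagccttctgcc
Dtx1: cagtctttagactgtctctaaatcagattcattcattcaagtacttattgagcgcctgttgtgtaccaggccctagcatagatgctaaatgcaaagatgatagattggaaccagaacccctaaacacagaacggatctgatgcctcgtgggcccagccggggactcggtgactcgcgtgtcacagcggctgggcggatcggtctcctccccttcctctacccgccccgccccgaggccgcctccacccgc
Nrarp: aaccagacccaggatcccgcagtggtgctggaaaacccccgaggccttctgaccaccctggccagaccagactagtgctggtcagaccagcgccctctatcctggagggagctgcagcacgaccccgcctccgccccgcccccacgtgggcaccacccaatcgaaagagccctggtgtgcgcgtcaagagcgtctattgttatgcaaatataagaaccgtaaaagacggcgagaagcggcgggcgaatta
Hey2: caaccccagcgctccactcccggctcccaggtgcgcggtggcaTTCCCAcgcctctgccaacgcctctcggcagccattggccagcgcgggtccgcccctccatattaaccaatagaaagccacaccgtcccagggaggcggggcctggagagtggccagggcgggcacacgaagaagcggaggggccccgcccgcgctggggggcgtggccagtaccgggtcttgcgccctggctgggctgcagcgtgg

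The core was present on either strand in 21.6% of all 32851 RefSeq promoter windows of this length, and 2.77% held 2 or more. Of the 22 genes looked for, which were the members, the other target genes and Tcf7, 18 had a window, among them 8 of the 10 members. It was found in Ptcra, with first bases 84 and 32 bases before the start, and in Hey2, 207 bases before the start. Thus 1 of 8 members held it. No capitals appear in the Dtx1 and Nrarp windows, which says only that these letters were not within these 250 bases.

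Levels are given as TPM, transcript abundance scaled to gene length and to the total of each cell, or as log2(TPM + 1), and a gene was counted as detected in a cell above 1 TPM. Read depth is unknown, since TPM keeps no depth. The number of genes detected per cell stood in for it: iHECs had a median of 4926, and the 3 iHPC stages, in order, 8200, 8101 and 6696. The range over all cells was 3103 to 9658 genes. Endothelial markers (8 genes, among them Cdh5, VE-cadherin) were each detected in at least 50% of the iHECs. The blood markers, 5 of 5, were each in at least 50% of the cells of each iHPC stage. Neither list separated the stages fully. The blood marker Laptm5 was in 39 of 65 iHECs, and the endothelial markers Pecam1 and Esam in 17 and 15 of 21 day-14 cells. At day 17 Pecam1 and Esam were in 16 and 15 of 18 cells, and at day 21 Pecam1 was in 46 of 56. Cdh5 was detected in no iHPC.

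Some cells were near-identical. Across 9674 genes (those with over 30 cells past 1 TPM), Pearson's r of log2(TPM + 1) between 2 cells of a stage passed 0.95 in 6 pairs. In iHECs 4 pairs had an r of 0.963 to 0.991, where the next pair had 0.699 and the median pair 0.546. At day 17, 1 pair had 0.985, where the next had 0.819. At day 14, 1 pair had 0.956, but the next, at 0.935, was close to it. No day-21 pair passed 0.805. Whether the 2 profiles of a pair come from 1 cell was not tested, since TPM keeps no counts. Counts below take every cell, and those that rest on these pairs are also given with each pair as 1 cell at its mean TPM, which leaves 61, 20, 17 and 56 cells. In that form Notch1 was detected in 30, 10, 15 and 36 cells in the order of the stages, Dll4 in 18 iHECs, Jag1 in 24, Hey1 in 14 and Nrarp in 54.

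**Figure D1:**
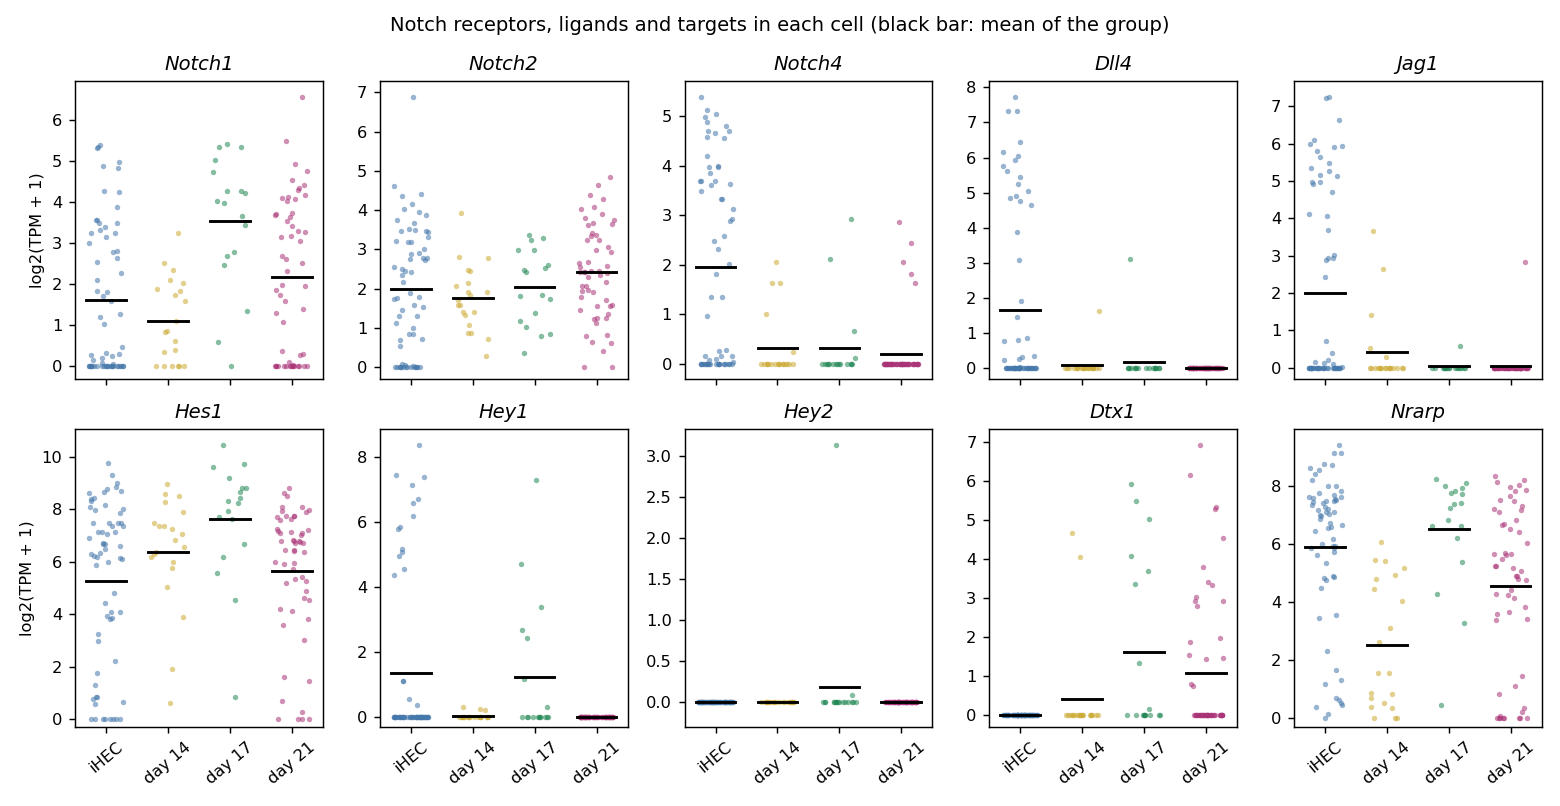
Level of each of the 10 genes in each cell, as log2(TPM + 1), by stage, with the mean of the stage as a black bar and points spread sideways for visibility. Dll4, Jag1 and Notch4 lie above 0 mostly in iHECs, Dtx1 only in iHPCs, and Nrarp dips at day 14.

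Notch1, the main receptor of early T cell progenitors and of arterial endothelium (chromosome 2, 26457903 to 26516663, minus strand, GENCODE M21), was detected at every stage and most often at day 17. Its TPM had a median of 0.387 in iHECs, from 0 to 40.9. At day 14 the median was 0.83, from 0 to 8.45. At day 17 it was 15.1, from 0 to 41.9, and at day 21 it was 3.49, from 0 to 93.4. Detection was 32 of 65 iHECs (49.2%, exact 95% interval 36.6 to 61.9), 10 of 21 cells at day 14 (47.6%, 25.7 to 70.2), 16 of 18 at day 17 (88.9%, 65.3 to 98.6) and 36 of 56 at day 21 (64.3%, 50.4 to 76.6). The intervals cover counting error only. All 4 stages overlapped, and the day-14 cells stayed below the upper part of the day-17 range.

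Mean log2 levels of Notch1 were 3.54 ± 1.61 (SD) at day 17, 2.18 ± 1.88 at day 21, 1.61 ± 1.81 in iHECs and 1.12 ± 1.01 at day 14. No neighbours in that order differed by more than the larger SD between cells. Day 17 did exceed day 14 by more than that, by 2.42.

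Notch2 (chromosome 3, 98013527 to 98150361, plus strand), a second receptor with broad expression in blood cells, varied least of the receptors. Detection was 42 iHECs (64.6%), 17 cells at day 14 (81%), 15 at day 17 (83.3%) and 49 at day 21 (87.5%). Its mean log2 levels, 1.98, 1.77, 2.04 and 2.41 in that order, lay close together against SDs of 0.84 to 1.61. The stages did not separate.

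Notch4 (chromosome 17, 34564268 to 34588503, plus strand), an endothelial receptor, was found mostly in iHECs. Detection was 34 of 65 cells there (52.3%, 39.5 to 64.9), up to 41 TPM. At days 14, 17 and 21 it was detected in 4, 2 and 5 cells (19%, 11.1% and 8.93%), never above 6.61 TPM. The 2 day-17 cells were the near-identical pair, so Notch4 was in 1 of 17 with the pair as 1 cell. Its mean log2 level was 1.96 ± 1.98 in iHECs and 0.19 to 0.32 in the iHPC stages, a difference smaller than the spread between iHECs.

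Notch3, a receptor gene that is also a Notch target in T cell progenitors, was rare in iHECs (4 cells) and at day 14 (4 cells). By contrast, 12 of 18 cells had it at day 17 and 23 of 56 at day 21. With each near-identical pair as 1 cell, these counts were 3 at day 14 and 11 of 17 at day 17.

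The ligands were found mainly in iHECs. Dll4 (chromosome 2, 119325784 to 119335962, plus strand), the Delta-like ligand of arterial endothelium, was detected in 20 of 65 iHECs (30.8%, 19.9 to 43.4). The median of those 20 cells was 39.5 TPM and the highest 209 TPM. Among iHPCs, 1 cell had it at day 14, with 2.12 TPM, 1 cell at day 17, with 7.64 TPM, and 0 of 56 cells at day 21, which allows a share of up to 5.36%. Among iHECs most cells were at 0 (37 of 65), and 8 lay above 0 without passing 1 TPM.

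Jag1 (chromosome 2, 137081456 to 137116644, minus strand), a Jagged ligand of endothelium and stroma, was detected in 26 iHECs (40%, 28 to 52.9), with a median of 34.6 TPM in those cells and a highest value of 151 TPM. At days 14, 17 and 21 it was detected in 3, 0 and 1 cells, with at most 11.7 TPM. Both ligands were detected together in 10 iHECs, Dll4 alone in 10 and Jag1 alone in 16.

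Of the other ligands, Dll1, the ligand that the feeder line displays, was detected in 2 iHECs and in none of the 21, 18 and 56 iHPCs. Those zeros allow 14.3%, 16.7% and 5.36% of cells at most. At this depth Dll1 was therefore not detectable in iHPCs. Stromal feeder markers (8 genes) summed to 0 to 36.6 TPM at day 14, 0 to 116 TPM at day 17 and 0 to 85.3 TPM at day 21, and Col3a1 and Lum were at or under 1 TPM in every cell. Pdgfrb alone was detected in over 50% of the cells of the last 2 stages (16 and 44 cells), and each other stromal marker in at most 2 cells of an iHPC stage. Jag2 was detected in 9, 1, 2 and 1 cells from iHEC to day 21, and Dll3 in 2 cells of day 14 alone.

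Dlk1, an atypical Notch ligand that lacks the domain shared by the activating ligands, was high in iHECs, where 64 of 65 cells had it with a median of 235 TPM. Its median was 15.5 TPM at day 14 (16 cells) and 0 at days 17 and 21 (4 and 5 cells). Dlk2 was detected in no cell of any stage.

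The ligands of single iHECs were compared with the receptors in the same cells. Of the 20 cells with Dll4, 17 also had Notch1, against 15 of the 45 cells without it. Spearman's rho of Dll4 with Notch1 was 0.41 over the 65 cells, place 37 from the highest of 8786 genes. Nrarp was detected in all 20 cells with Dll4 and in 38 of the other 45, with a rho of 0.32. Notch2 went the other way, with 10 of 20 against 32 of 45 cells and a rho of -0.31. The rho of Dll4 with the number of genes detected was 0.13. With each near-identical pair as 1 cell (61 iHECs), Notch1 was in 15 of 18 cells with Dll4 and 15 of 43 without, Nrarp in 18 and 36, and rho was 0.40 for Notch1, 0.32 for Nrarp and -0.31 for Notch2. With the arterial gene Efnb2 (rho -0.13) and the venous regulator Nr2f2 (rho -0.02) no such relation appeared. These correlations over cells of 1 stage are descriptions, and the cells share 1 label.

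**Figure D2:**
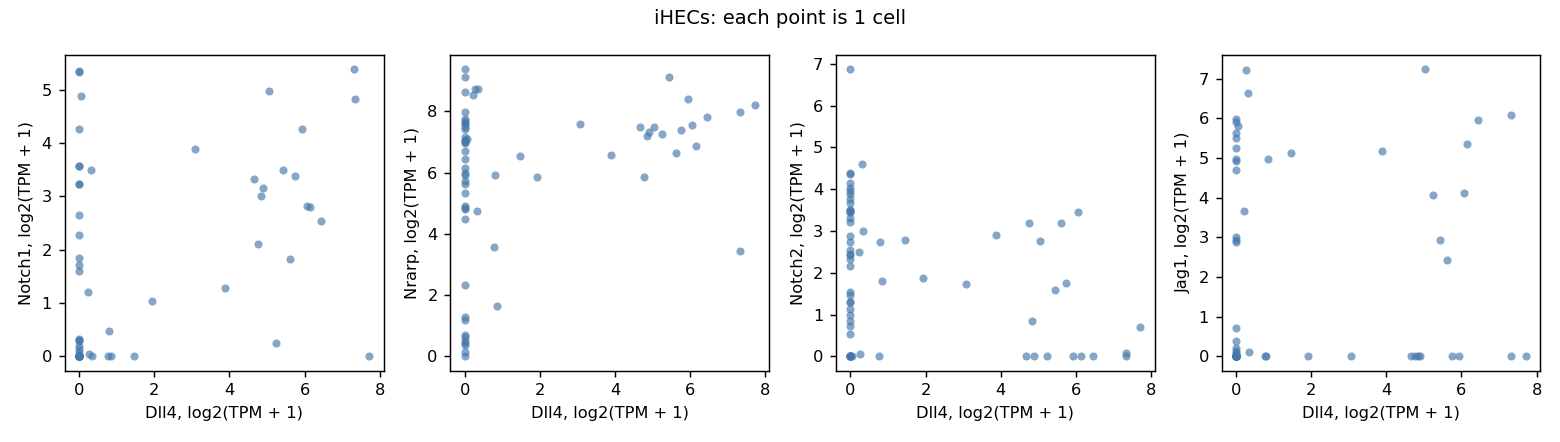
Dll4 against Notch1, Nrarp, Notch2 and Jag1 in iHECs, both axes as log2(TPM + 1), each point 1 of 65 cells. Cells with Dll4 mostly carry Notch1 and all carry Nrarp, with a rho of 0.41 and 0.32.

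Among the targets, Hes1 (chromosome 16, 30064384 to 30067796, plus strand), a transcriptional repressor and a classical Notch target, was on at every stage. Cells with it numbered 52 of 65 iHECs, 20 of 21 cells at day 14, 17 of 18 at day 17 and 50 of 56 at day 21. Its median was 79.4, 112, 311 and 95.4 TPM in that order, with highest values of 859, 501, 1376 and 441 TPM. Day 17 stood highest, yet the stages overlapped over most of their ranges: mean log2 levels of 5.28, 6.38, 7.63 and 5.65 carried SDs of up to 3.10, and no neighbours in the order differed by more.

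Nrarp (chromosome 2, 25180758 to 25183339, plus strand), which encodes a feedback inhibitor that binds the Notch transcription complex, had the largest differences between stages of the 10 members. Its median was 116 TPM in iHECs (0 to 667), 1.92 TPM at day 14 (0 to 66.4), 156 TPM at day 17 (0.374 to 296) and 33.7 TPM at day 21 (0 to 320). Day-14 cells were mostly low and day-17 cells mostly high, and 4 of the 18 day-17 cells lay within the day-14 range. The mean log2 level was 5.88 ± 2.62 in iHECs and 2.51 ± 2.20, 6.50 ± 2.03 and 4.53 ± 2.81 in the successive iHPC stages. Both changes around day 14 (-3.37 and 3.99) were larger than the spread between cells, and that from day 17 to day 21 (-1.97) was not.

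Hey1 (chromosome 3, 8663359 to 8667256, minus strand), a transcriptional repressor and an arterial target, was present in a minority of cells at 2 separate stages. Of the 65 iHECs, 16 had it (24.6%, 14.8 to 36.9), with a median of 55.2 TPM in those cells and up to 324 TPM. At day 14 no cell had it, and at day 17 it was detected in 6 of 18 cells (33.3%, 13.3 to 59), with a median of 7.34 TPM in those cells and 156 TPM in the highest. No cell of day 21 had it, which allows a share of up to 5.36%. Of the 6 day-17 cells with Hey1, 5 had Tcf7.

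Hey2 (chromosome 10, 30832359 to 30842801, minus strand), the second arterial Hey gene, was detected in a single cell, at day 17, with 7.81 TPM. For the 65 iHECs, where it was listed at 0 throughout, this allows a share of up to 4.62%. Heyl was likewise absent from iHECs and was detected in 3 cells at day 17 and 1 at day 21.

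Dtx1 (chromosome 5, 120680202 to 120711927, minus strand), the Deltex ubiquitin ligase gene and a Notch target of T cell progenitors, was confined to iHPCs among these libraries. It was listed at 0 in all 65 iHECs. The iHPCs had it in 2 cells at day 14 (9.52%, 1.17 to 30.4), 7 at day 17 (38.9%, 17.3 to 64.3) and 17 at day 21 (30.4%, 18.8 to 44.1), with highest values of 24.6, 60.3 and 120 TPM. The mean log2 levels of 0.42, 1.61 and 1.08 differed by less than the spread between cells.

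Differences between successive stages were read relative to the median gene, because the median difference of 9674 genes, those that passed 1 TPM in over 30 cells, was not 0. On the log2 scale it was 0.93 for the first step (iHEC to day 14), 0.28 for the second step (day 14 to 17) and -0.74 for the third step (day 17 to 21). Of the 10 members, 5 were among those genes (Notch1, Notch2, Notch4, Hes1 and Nrarp). A gene could pass this filter through 1 stage alone, as Notch4 did through its 34 iHECs. The direction of such a gene comes in part with that selection. A gene listed at 0 at both stages, as Hey2 was from iHEC to day 14, shifts by the median alone.

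At the first step 7 of the 10 members were lower by over 1 relative to the median and 0 were higher. Of all genes in the filter 24.4% were lower and 27.3% higher by as much. The 7 were Nrarp (-4.29), Notch4 (-2.57), Jag1 (-2.52), Dll4 (-2.50), Hey1 (-2.25), Notch1 (-1.42) and Notch2 (-1.14). For Notch1 and Notch2 this came mostly from the shift of the median gene, as their own means changed by -0.49 and -0.21. Dll4, Jag1 and Hey1 were outside the filter, and Notch4 passed it through iHECs alone. The shares of all genes are therefore no like measure for these members. The median over the members was -1.84, beside 0 for the median gene. With a pseudocount of 10 in place of 1, only Nrarp remained past the limit.

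At the second step Nrarp (3.72) and Notch1 (2.14) were higher and 0 members lower. Among all genes 9.03% were higher and 7.09% lower. Hes1 (0.97), Dtx1 (0.92) and Hey1 (0.91) lay just inside the limit. The median over the members was 0.45. With each near-identical pair as 1 cell, the difference was 3.62 for Nrarp, Notch1 stayed past the limit and Hes1 came to lie just past it, so 3 members were higher.

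At the third step Notch2 (1.11) was higher and Hes1 (-1.24) and Nrarp (-1.23) were lower, where 10.3% of all genes were higher and 13.1% lower. For Notch2 this came mostly from the shift of the median gene, as its own mean changed by 0.37. None of these 3 genes differed by more than the spread between cells. The median over the members was 0.38.

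**Figure D3:**
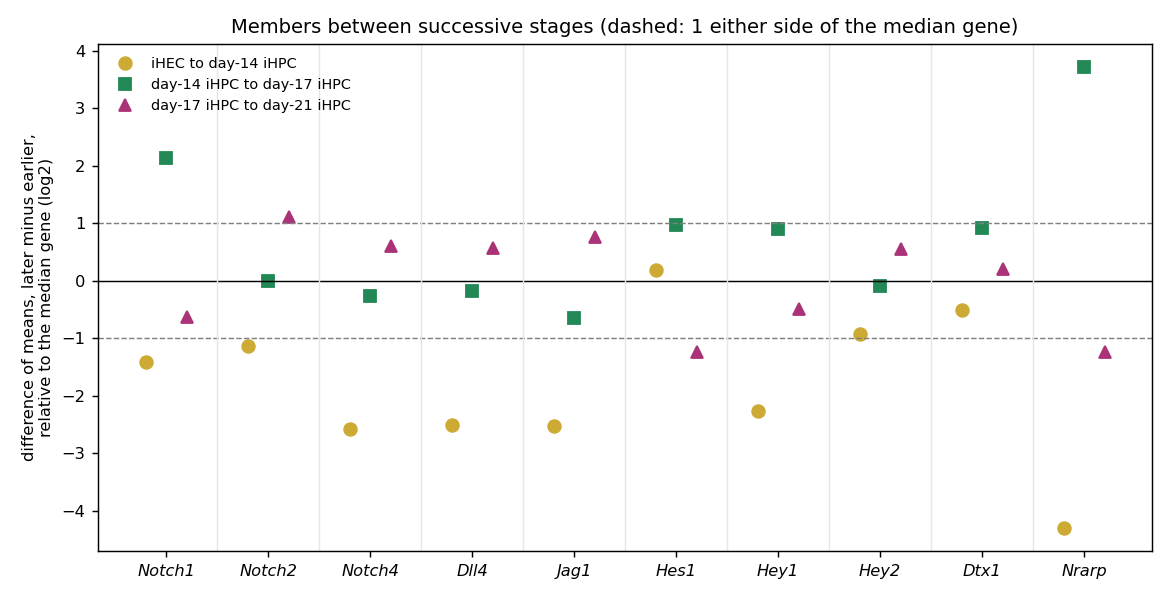
Difference of mean log2(TPM + 1) between successive stages, later minus earlier and relative to the median gene, for each of the 10 genes. Circles below the lower dashed line are the 7 genes lower from iHEC to day 14, and squares above the upper line are Notch1 and Nrarp from day 14 to day 17.

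Endothelial and lymphoid targets were then separated. The endothelial list held Hey1, Hey2, Heyl, Efnb2, Gja4, Gja5 and Unc5b, and its mean log2 level per cell was 0.95 ± 0.77 in iHECs, 0.12 ± 0.20, 0.34 ± 0.57 and 0.07 ± 0.19 in the 3 iHPC stages. At least 1 of its genes was detected in 51 of 65 iHECs, 5 of 21, 8 of 18 and 7 of 56 cells. Efnb2, the arterial ephrin, led it, with 38 iHECs and 2, 2 and 5 iHPCs. Gja4 was detected in 14 iHECs and no iHPC, and Unc5b in 16 iHECs and 3, 2 and 2 iHPCs. At the first step 5 of the 7 were lower by over 1 relative to the median and 0 higher, where 24.4% of all genes in the filter were lower. Of the 7, only Efnb2 passed that filter, through its 38 iHECs, and the 5 differences were all smaller than the larger SD between cells. Gja5, 1 of the 5, was detected in 1 iHEC, and its own mean changed by -0.09, so the shift of the median gene put it past the limit.

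All 8 endothelial markers were also lower from iHEC to day 14, with a median of -6.26 relative to the median gene. Their summed level was 56.3 to 6513 TPM in iHECs and 0.48 to 240 TPM at day 14. Cdh5, Kdr, Tek, Emcn, Cldn5 and Sox18 passed the filter through iHECs alone, so their lower level came in part with that selection. Arterial markers (3 of 3) and venous markers (3 of 3) were lower as well, beside 24.4% of all genes lower. Of the arterial and venous markers, Nrp1 alone differed by more than the larger SD between cells. The arterial marker Gja5 was detected in 1 iHEC, and its own mean changed by -0.09. How much of the endothelial target difference goes with the loss of endothelial markers was not tested.

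The lymphoid list held Dtx1, Ptcra, Il2ra, Notch3, Gata3 and Bcl11b, and its mean per cell was 0.32 ± 0.40 in iHECs, 0.53 ± 0.36, 2.07 ± 1.29 and 1.80 ± 1.39 in the 3 iHPC stages. At least 2 of its genes were detected in 2 of 65, 4 of 21, 14 of 18 and 36 of 56 cells. Ptcra, the invariant chain of the pre-T cell receptor, was listed at 0 in every iHEC and day-14 cell. It was detected in 13 of 18 cells at day 17, with a median of 125 TPM over all 18, and in 31 of 56 at day 21, with a median of 3.12 TPM. Its difference from day 14 to day 17, 5.10 relative to the median, exceeded the spread between cells. Ptcra passed the filter through days 17 and 21 alone, and from 0 at day 14 its mean could not fall.

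Il2ra, the interleukin-2 receptor alpha chain that marks the next stage of T cell progenitors, was detected in 1 cell at day 17 and 18 at day 21, up to 372 TPM. Gata3, a T cell transcription factor that iHECs also expressed (28 cells), was detected in 16, 13 and 35 iHPCs. Bcl11b, the T cell commitment factor, was detected in 1 cell at day 14 and 1 at day 21. At the second step 2 of the 6 genes (Ptcra and Notch3) were higher by over 1 relative to the median and 0 lower, and at the third 1 was higher and 0 lower, beside 9.03% and 10.3% of all genes higher. Of the 6 genes, 3 were in the filter.

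In 18 of 21 cells at day 14 at least 1 lymphoid target was detected, mostly Gata3, and in 3 of 18 day-17 cells and 12 of 56 day-21 cells none was. With each near-identical pair as 1 cell, at least 2 lymphoid targets were in 13 of 17 day-17 cells, and the mean of the list there was 1.95. T lymphoid markers (7 genes) had a mean per cell of 0.20 in iHECs and 0.48, 2.22 and 2.62 in the 3 iHPC stages. Their summed level was 0 to 120 TPM at day 14, 0 to 1617 TPM at day 17 and 0 to 5093 TPM at day 21. At the second step 2 of the 7 were higher, Lck (5.49) and Cd7 (5.61), beside 9.03% of all genes. The median of the list was -0.09 there. At the third step 5 were higher and 1 lower, beside 10.3% and 13.1% of all genes. None differed by more than the spread between cells. The shift of the median gene put Cd3d, Cd3e, Cd247 and Thy1 past the limit. Their own means changed by 0.36, 0.59, 0.47 and 0.58. Cd3e, Thy1 and Cd247 were detected in no cell before day 21 and in 8, 9 and 5 of its 56 cells. Cd3g was detected in 1 of 18 cells at day 17 and 30 of 56 at day 21, and Cd3d in 2 and 8 cells.

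Neutrophil or monocyte markers also differed between day 14 and day 17. Of these 6 genes, 3 were lower and 1 higher at the second step, beside 7.09% and 9.03% of all genes. None of the 6 had passed the filter. Mpo, the neutrophil peroxidase, was detected in 17 of 21 cells at day 14 and 4 of 18 at day 17 (-4.68 relative to the median). Csf1r, the receptor of a macrophage growth factor, was in 19 and 5 cells (-3.74). The mean of the list was 2.66 at day 14 and 1.35 at day 17, and its summed level was 0 to 1450 TPM and 0 to 7475 TPM. The part of this difference in the Nrarp, Notch1 and lymphoid target differences was not tested.

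The shared targets Hes1, Nrarp and Myc had a mean per cell of 5.22 ± 1.95 in iHECs, 5.64 ± 1.43, 6.99 ± 1.46 and 5.33 ± 1.95 in the iHPC stages. Its genes did not move together. At the first step the difference relative to the median was 2.59 for Myc, a growth regulator, and -4.29 for Nrarp, and at the second it was -1.49 for Myc and 3.72 for Nrarp.

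**Figure D4:**
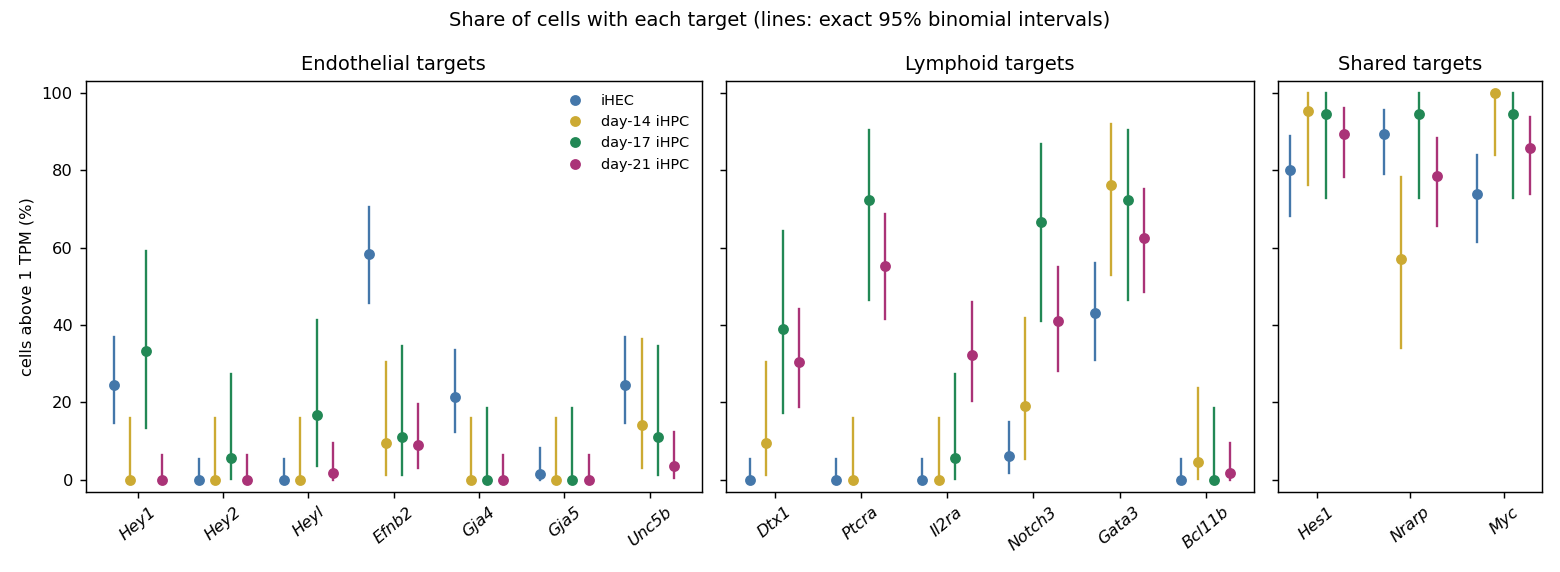
Share of cells above 1 TPM for each endothelial, lymphoid and shared target by stage, with exact 95% binomial intervals. Efnb2, Gja4 and Unc5b are highest in iHECs, Dtx1, Ptcra and Notch3 at day 17, Il2ra at day 21, and Nrarp is lowest at day 14.

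The nuclear complex held Rbpj and the coactivators Maml1, Maml2 and Maml3. Rbpj was detected in 23 of 65 iHECs, 16 of 21 cells at day 14, 17 of 18 at day 17 and 31 of 56 at day 21. Maml2 was found mostly in iHECs, in 49 of 65 cells with a median of 14 TPM, and in 1, 4 and 9 iHPCs. Maml1 was detected in 17, 11, 12 and 16 cells. At the first step 2 of the 4 genes, Maml2 (-4.19) and Maml3 (-1.64), were lower by over 1 relative to the median and 0 higher, beside 24.4% of all genes lower. Of the 2, Maml2 alone differed by more than the larger SD.

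The receptor proteases were expressed throughout. Psen2, Ncstn, Aph1a and Psenen of gamma secretase and the sheddases Adam10 and Adam17 were each detected in at least 50% of the cells of some stage. Psenen, a subunit of gamma secretase, had medians of 242, 184, 126 and 152 TPM. Adam10, the sheddase of ligand-bound Notch, was detected in all 65 iHECs with a median of 104 TPM, and its median was 14.9, 8.93 and 3.15 TPM in the iHPC stages.

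Among the glycosyltransferases that tune ligand binding, Pofut1, which adds the fucose that ligand binding needs, was detected in 2 of 65 iHECs and in 15, 13 and 18 iHPCs. The fucose-extending Mfng was detected in 56 iHECs with a median of 136 TPM, and its medians at days 14, 17 and 21 were 74, 51 and 27 TPM. Rfng and Poglut1 were detected in at least 50% of the cells of every iHPC stage. At the first step 1 of these 5 genes was higher and 1 lower, beside 27.3% and 24.4% of all genes. The ubiquitin ligases of ligand endocytosis (Mib1, Mib2, Neurl1a and Neurl1b) were detected in less than 50% of the cells of each stage.

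Of the 12 inhibitors and turnover genes, 2 were higher and 2 lower at the first step, beside 27.3% and 24.4% of all genes. At the second step 2 were higher and 0 lower, beside 9.03% of all genes higher. Numb, which directs Notch to degradation, was detected in 49 iHECs with a median of 46.8 TPM, and in 12, 10 and 21 iHPCs. Dtx2, a Deltex relative, had the opposite pattern, with 8 of 65 iHECs, 20 of 21, 18 of 18 and 30 of 56 cells. Dtx3 and Dtx3l were each detected most often at day 17, in 16 and 15 of 18 cells, and Dtx4 at day 14, in 14 of 21. Fbxw7, the ligase that ends the activity of the Notch intracellular domain, was detected in 18, 16, 13 and 30 cells and Itch in 37, 12, 12 and 38. Spen, a corepressor partner of RBPJ, reached 50% of the cells at day 17 alone (11 of 18). Hes6, a Hes family gene not driven by Notch in the classical way, was detected in 46, 20, 18 and 53 cells.

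Tcf7, which encodes the factor TCF1 of early T cell development, was detected in 13 of 65 iHECs, 6 of 21 cells at day 14, 13 of 18 at day 17 and 28 of 56 at day 21. At day 21 its median was 1.27 TPM and its highest value 372 TPM. The even split of that stage allowed the Notch genes to be set against Tcf7 cell by cell. Tcf7 itself had a rho of -0.10 with the number of genes detected, and the median number of genes was 6718 in cells with it and 6696 in cells without it.

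Notch1 was detected in 24 of the 28 day-21 cells with Tcf7 (85.7%, 67.3 to 96) and in 12 of the 28 without it (42.9%, 24.5 to 62.8). Spearman's rho was 0.56 over the 56 cells, place 37 from the highest of 9456 genes, whose median rho was near 0. Ptcra was detected in 24 cells with and 7 without Tcf7 (rho 0.51), Gata3 in 25 and 10 (rho 0.51), Il2ra in 15 and 3 (rho 0.43) and Dtx1 in 13 and 4 (rho 0.39). Ptcra, Gata3, Il2ra and Dtx1 were thus detected more often in cells with Tcf7, while Notch3, also on the lymphoid list, was in 11 and 12 cells and Bcl11b in 1 cell. In all, 22 cells had Tcf7, Notch1 and Ptcra together.

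The shared targets and the other receptors gave other counts. Hes1 was detected in 27 cells with and 23 without Tcf7, with a rho of 0.01, and Nrarp in 24 and 20, with a rho of 0.24. Notch3 had a rho of 0.10. Notch2 was in 22 and 27 cells, with a rho of -0.36. The differences between these correlations were not tested.

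At least 2 lymphoid targets were detected in 25 of the 28 cells with Tcf7 and 11 of the 28 without. The mean of the lymphoid list had a rho of 0.63 with Tcf7 at day 21, and that of the endothelial list -0.32. Efnb2 was detected in 0 of the 28 cells with Tcf7, which allows a share of up to 10.7%, and in 5 of those without it.

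**Figure D5:**
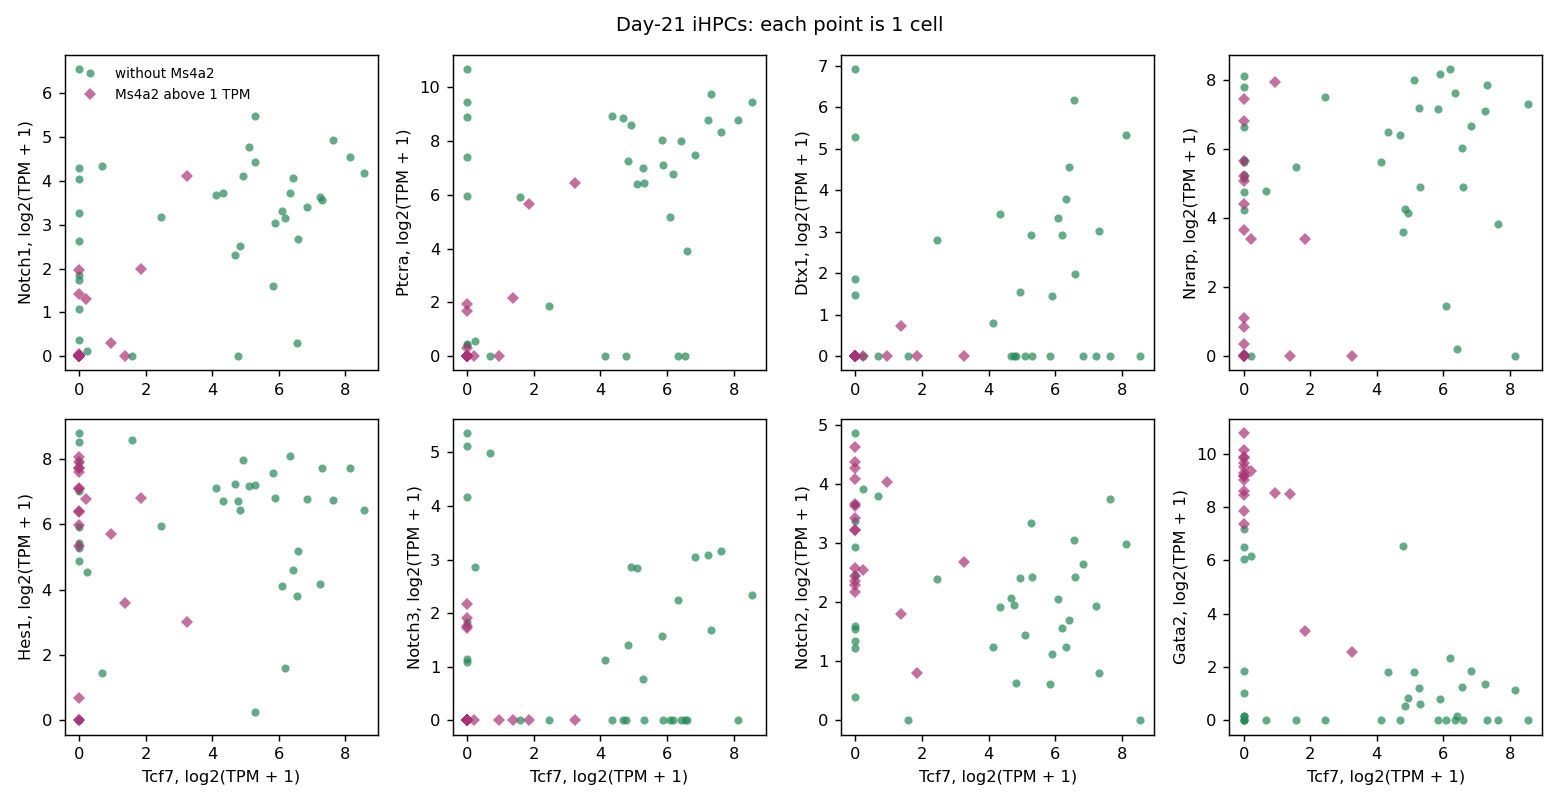
Tcf7 against 8 genes in the 56 day-21 cells, both axes as log2(TPM + 1), with diamonds for the 19 cells that had Ms4a2 above 1 TPM and circles for the other 37. Diamonds lie mostly at the left, low in Notch1 and Ptcra and high in Gata2, while Hes1 spans the same range in both.

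Markers of another lineage were present in these cells. Cpa3, the mast cell carboxypeptidase, was detected in all 56 day-21 cells, at 19.4 TPM or more, in 11 of 18 cells at day 17 and in no iHEC or day-14 cell. Whether this was expression in every cell or RNA carried over from other cells was not tested, and a table of TPM cannot tell them apart. The mast cell or basophil list (6 genes) summed to 38.6 to 99242 TPM at day 21. Ms4a2, the beta chain of the high-affinity IgE receptor, was detected in 19 of the 56 cells and at no earlier stage. It was singled out from that list after its values were seen, since the other genes were in nearly all day-21 cells or, like Fcer1a (2 cells), in very few.

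Notch1 was detected in 5 of the 19 cells with Ms4a2 (26.3%, 9.15 to 51.2) and in 31 of the other 37 (83.8%, 68 to 93.8). Dtx1 was in 0 (a share of up to 15.8%) and 17 cells, Ptcra in 5 and 26, and Tcf7 in 3 and 25. Notch2 was detected in 18 and 31 cells, Hes1 in 16 and 34, and Nrarp in 11 and 33. Gata2, a mast cell and progenitor factor, was in all 19 and in 15 of the 37. The 5 day-21 cells with Efnb2 were all among the 19.

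Against the mean of the mast cell or basophil list, rho was -0.71 for Notch1, -0.58 for Ptcra, -0.45 for Dtx1, -0.33 for Nrarp, -0.08 for Hes1 and 0.39 for Notch2. Against the T lymphoid list it was 0.71 for Notch1, 0.73 for Ptcra, 0.40 for Dtx1 and -0.51 for Notch2. Notch1 and Notch2 had a rho of -0.34 with each other. The 2 receptors thus ordered the day-21 cells in opposite directions, and Hes1 ordered them in neither.

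Within the 37 cells without Ms4a2, 25 had Tcf7. Notch1 was detected in 22 of those 25 and in 9 of the 12 without Tcf7, and its rho with Tcf7 was 0.31, against 0.56 over all cells. For Ptcra the counts were 21 of 25 and 5 of 12, with a rho of 0.29. For Dtx1, Nrarp and Notch2 rho was 0.20, 0.10 and -0.10. The rho of Notch1 with Tcf7 was therefore lower where Ms4a2 cells were left out. The split by Ms4a2 did not follow Gata2 fully. Some cells without Ms4a2 and Tcf7 had high Gata2, up to a log2 level of 7.17. In 2 cells with Tcf7, Notch1 and Ptcra, Ms4a2 was just past the threshold, at 1.02 and 1.35. The median number of genes detected was 6687 with and 6704 without Ms4a2.

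At day 17 Notch1, Nrarp, Ptcra and Dtx1 were again in a larger share of the cells with Tcf7, in few cells. Notch3 was too, unlike at day 21. Notch1 was detected in 13 of 13 cells with Tcf7 and 3 of 5 without, Nrarp in 13 and 4, Ptcra in 11 and 2, Notch3 in 11 and 1, and Dtx1 in 6 and 1. Their intervals overlapped, with 75.3 to 100% against 14.7 to 94.7% for Notch1. Notch2 and Hes1 went the other way, in 10 and 12 of the 13 cells with Tcf7 and in all 5 without. Over the 18 cells rho was 0.11 for Notch1, 0.04 for Ptcra and -0.20 for Nrarp. The mean of the lymphoid list had a rho of -0.001 with Tcf7 there. With the near-identical pair as 1 cell (17 cells), Notch1 was in 12 of 12 and 3 of 5, Ptcra in 10 and 2, Notch3 in 10 and 1 and Dtx1 in 5 and 1. At day 14 Notch1 was in 1 of 6 cells with Tcf7 and 9 of 15 without. In iHECs it was in 8 of 13 and 24 of 52 cells, with a rho of 0.30 and a rho of Tcf7 with the number of genes detected of 0.29.

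The genes most like each member over single cells were ranked within the 2 large stages. Among 9456 genes in the 56 day-21 cells, those nearest Notch1 were Cd27 (rho 0.76), a costimulatory receptor of lymphocytes, Timp2 (0.74) and Nrgn (0.73). Notch2 was nearest to Ostf1 (0.69), Ptp4a2 (0.68) and Nr3c1 (0.64), the glucocorticoid receptor. Dtx1 was nearest to Hist1h2bm (0.64), Plekha7 (0.59) and Noc4l (0.59), Nrarp to Sumo3 (0.66), Rp9 (0.62) and 2410016O06Rik (0.62), and Hes1 to Zbtb2 (0.55), Gpn2 (0.54) and Kat8 (0.53).

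Among 8786 genes in the 65 iHECs the highest values were lower. Notch1 was nearest to Tcf7l1 (0.59), Ier5l (0.55) and Usp19 (0.54), and Dll4 to Vash1 (0.58), an endothelial angiogenesis inhibitor, Adam19 (0.51) and Stap2 (0.50). Hey1 was nearest to Erg (0.58), an endothelial transcription factor, 1700001C19Rik (0.52) and Atg16l2 (0.49). Notch4 was nearest to Arhgap27 (0.53), Pla2g6 (0.51) and Pvrl2 (0.51), Nrarp to Add1 (0.52), C430049B03Rik (0.50) and Akap2 (0.48), and Jag1 to Fuk (0.50), Creb3l1 (0.46) and Prep (0.46). Notch2 was nearest to Cbx3 (0.50), Ppp1r7 (0.48) and Glrx5 (0.47), and Hes1 to Dusp14 (0.46), Ccnd1 (0.44) and Dbn1 (0.41). With each near-identical pair as 1 cell, 13 of these 24 genes stayed among the 3 nearest, so the places in iHECs depended on those pairs. The points share a stage and a library protocol, and each value is among the 3 highest of all genes ranked.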

How the data were processed

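Single cells were sorted and their cDNA amplified and sequenced by the authors, who aligned reads to mm10 with HISAT2 2.1.0 and computed TPM with StringTie 1.3.4. The deposited table holds TPM for 23420 genes in 160 cells, and all its columns were used. It was not stated how reads of overlapping genes were assigned. The submitters and the study name different sequencers. Read numbers per cell are unknown.

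Values were taken as log2(TPM + 1), so differences understate changes of low genes, and detection was above 1 TPM. Group means were subtracted, later minus earlier, and the median over 9674 genes above 1 TPM in more than 30 cells was removed. Intervals of shares are exact (Clopper-Pearson, 95%), and the limit for 0 cells is 3 counts. Spearman correlations used genes above 1 TPM in at least 10 cells. The procedure was tried on the cells themselves, with stage labels shuffled, chosen genes raised or lowered strongly and a noisy copy of Notch1 added. Small changes were not tried. Python 3.11.15, pandas 2.3.3 and SciPy 1.17.1 were used, with GENCODE M21 positions.

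Members and lists were chosen with earlier results of these data known. Named were all members, every list gene above 1 TPM in at least 50% of the cells of a group or in no cell, and the 3 genes most like each member. Some values that this rule covers are not reported here. Alternatives were other pseudocounts (0.1 and 10), size factors, cells by number of genes (at least 4000, or 5000 to 8000), no filter on low values, other detection thresholds (0 and 10 TPM) and Pearson correlation. Day-21 cells without Ms4a2, and each near-identical pair as 1 cell, were added after the data were seen.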

Additional observations from a re-analysis of the deposited data

How the results depend on the processing

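The counts of members past the limit depended on the pseudocount and on the centring. From iHEC to day 14, 1 member was lower with a pseudocount of 10, and 1 was higher (Hes1) without the filter on low values, which sets the median difference to 0. From day 14 to day 17, 4 members were higher and 1 lower with a pseudocount of 0.1, 1 was higher with a pseudocount of 10, and 5 were higher without the filter. From day 17 to day 21, 2 were higher with a pseudocount of 0.1 and in cells with 5000 to 8000 genes, 0 with a pseudocount of 10 and 0 without the filter, where 4 were lower. In those 5000 to 8000 gene cells, 5 members were lower from iHEC to day 14.

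The endothelial list differed from iHEC to day 14 by -3.11, -0.60 and -0.82 with pseudocounts of 0.1 and 10 and without the filter, and from day 17 to day 21 by -0.28 without it. The lymphoid list differed from iHEC to day 14 by -1.29, -0.18, -0.30 and 0.21 with pseudocounts of 0.1 and 10, in cells with 5000 to 8000 genes and without the filter. The changes without the filter follow from a median difference of 0, and the other causes were not tested. From day 14 to day 17 the lymphoid list stayed higher, by 0.61 to 2.07, under all 7 alternatives. So did Nrarp, by 2.44 to 4.51, and Notch1, by 0.61 to 3.17. No member difference past the limit changed sign. With each near-identical pair as 1 cell, 3 members were higher from day 14 to day 17, and the other counts of members past the limit kept their value.

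Among day-21 cells without Ms4a2, rho with Tcf7 was 0.31 for Notch1, -0.10 for Notch2, 0.20 for Dtx1, 0.10 for Nrarp, 0.29 for Ptcra, 0.25 for Il2ra, 0.25 for Gata3 and -0.15 for Gata2. Pearson correlation and cells with at least 4000 genes moved none of the day-21 values by more than 1 standard error of a correlation. Above 10 TPM, Notch1 was found in 13 of 23 day-21 cells with Tcf7 and 5 of 33 without. No paired analysis was possible because each cell is its own library and a cell number is no pairing. The limit for every result is 1 sample per stage, unknown depth, and a detection floor that differs with the number of genes per cell.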
